A study of Mus musculus with 10 samples.

Results

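The proteasome is the barrel-shaped protease that degrades most ubiquitin-tagged proteins of the cytosol and nucleus. Its genes were examined in group 2 innate lymphoid cells (ILC2), lung lymphocytes without antigen receptors that make type 2 cytokines such as IL-5 and IL-13. Genes were chosen by name: every row whose symbol starts with Psm, a letter from a to g and a number, without pseudogene names ending in -ps and with any count. This gave 48 genes of the 19014 with any count. Another 2 genes of the family, Psmb10 and Psme2b, were listed at 0 in every library, and 4 pseudogene rows were dropped.

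RNA came from ILC2 sorted from lungs of C57BL/6 mice of 2 genotypes: wild type (WT), and knockouts of the transcription factor c-Maf, called KO as labelled. All mice had papain-induced lung inflammation. Papain is an enzyme that acts as an airway allergen. The sort took cells negative for lineage markers and positive for CD90.2, whatever their ST2 and KLRG1. Each genotype had 5 libraries of total RNA, from cohoused littermates, numbered here in deposit order. The sources used here do not name the Maf allele, the dose of papain or the age of the mice, and do not say in words whether libraries are separate mice. The p-values below therefore describe the spread among these 10 libraries.

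The catalytic core of the proteasome, the 20S particle, is a stack of rings of alpha and beta subunits. Of the beta subunits, those encoded by Psmb5, Psmb6 and Psmb7 cut peptide bonds. In lymphocytes and in cells exposed to interferon they are partly replaced by those of Psmb8, Psmb9 and Psmb10, giving the immunoproteasome, which favors peptides that fit MHC class I. The 19S regulatory particle, with ATPases (Psmc genes) and further subunits (most Psmd genes), recognizes ubiquitin, unfolds the substrate and feeds it into the core, while the Psme genes encode activators that open the core without ubiquitin.

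Libraries differed between the groups before any gene was considered. Maf, the targeted gene, gave 3252, 3832, 1412, 1696 and 2727 counts across the WT libraries. In KO it gave 108 counts in library 4 and 0 in the other 4. Scaled by TMM (below), KO library 4 stood at 15.4 CPM of Maf against 37.5 to 93.2 CPM in WT, so the library labelled KO 4 goes against a complete loss of the transcript. The allele is not named, so these reads cannot be set against a deleted part, and values without KO library 4 are given beside the genes most of whose KO counts it holds. Total counts ranged from 21400938 to 24489987 in the WT libraries and from 3620002 to 9867580 in the KO libraries. Of the 7490 genes tested, 0.694 to 3.51% had at most 3 counts in a WT library and 54.6 to 82.0% in a KO library. The 8 ILC2 markers checked were all detected in both groups and none of them passed the test, with a summed level of 5020 to 7570 CPM in WT and 398 to 14600 CPM in KO (counts per 1000000 by library size). The 6 erythroid markers summed to 1.39 to 9.19 CPM in WT and 120 to 190000 CPM in KO, highest in KO library 1, and 4 of the 4 tested were higher in KO. Alas2 was at 0 throughout. The 8 markers of macrophages and dendritic cells summed to 4.49 to 564 CPM in WT and 0 to 6.52 CPM in KO, where 3 were at 0 in every library. Markers of B cells reached 6.73 CPM in WT and 186 CPM in KO library 4. Of the 4 listed, 2 were at 0 in every WT library and 3 in every KO library, with Ms4a1 at 0 throughout. The KO value thus rests on the remaining gene. Markers of fibroblasts were at 0 in WT and reached 550.0 CPM in KO library 1. T cell and endothelial markers reached 129 and 166 CPM in WT and 23.5 and 18.2 CPM in KO, and granulocyte and epithelial markers stayed at or below 10.1 CPM in every library. The part of these other cells in the results below was not tested. In bulk RNA, fewer cells of a type and less RNA per cell cannot be told apart.

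Promoter sequences are shown for 4 genes whose values the comparison turns on: the constitutive catalytic subunits Psmb5 and Psmb6, the immunoproteasome subunit Psmb9 and the activator Psme1. Of the 48 genes, 40 had an entry in the RefSeq promoter table (GRCm38.p6), which runs from 250 bases before to 50 after a start site. Each is written in the direction of the gene. Capitals mark TGACNNNGC, the core of the element bound by NRF1 and NRF2 with small MAF proteins, and a pair of GAAA spaced by 2 bases, the core of the interferon-stimulated response element. The windows are chr14:54617946-54618245 (minus strand) for Psmb5, chr11:70525107-70525406 (plus strand) for Psmb6, chr17:34187281-34187580 (minus strand) for Psmb9 and chr14:55578244-55578543 (plus strand) for Psme1.
Psmb5: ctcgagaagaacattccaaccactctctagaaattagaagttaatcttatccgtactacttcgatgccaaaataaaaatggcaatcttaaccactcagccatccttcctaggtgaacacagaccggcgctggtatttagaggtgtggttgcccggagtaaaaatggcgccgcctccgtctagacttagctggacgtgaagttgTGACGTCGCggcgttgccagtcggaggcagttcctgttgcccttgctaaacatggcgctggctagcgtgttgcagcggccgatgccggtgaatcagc
Psmb6: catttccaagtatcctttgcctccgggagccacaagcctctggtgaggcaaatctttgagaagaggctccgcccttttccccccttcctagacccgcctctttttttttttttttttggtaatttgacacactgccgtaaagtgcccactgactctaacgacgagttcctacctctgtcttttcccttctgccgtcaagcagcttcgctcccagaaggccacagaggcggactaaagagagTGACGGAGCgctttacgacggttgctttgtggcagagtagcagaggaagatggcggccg
Psmb9: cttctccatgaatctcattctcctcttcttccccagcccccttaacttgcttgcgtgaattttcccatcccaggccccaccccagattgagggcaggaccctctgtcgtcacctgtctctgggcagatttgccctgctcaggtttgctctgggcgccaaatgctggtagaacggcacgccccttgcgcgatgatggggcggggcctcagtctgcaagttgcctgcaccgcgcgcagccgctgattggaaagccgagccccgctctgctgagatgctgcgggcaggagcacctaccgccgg
Psme1: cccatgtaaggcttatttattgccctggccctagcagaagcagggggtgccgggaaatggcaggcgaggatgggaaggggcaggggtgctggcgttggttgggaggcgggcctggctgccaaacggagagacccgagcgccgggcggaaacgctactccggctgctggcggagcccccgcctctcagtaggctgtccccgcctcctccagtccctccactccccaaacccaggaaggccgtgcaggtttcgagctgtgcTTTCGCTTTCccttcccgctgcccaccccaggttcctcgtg
In Psmb5 the first base of the marked TGACGTCGC lies 47 bases before the start site, and in Psmb6 that of TGACGGAGC lies 9 bases before it. The window of Psmb9 holds neither motif, and that of Psme1 holds the GAAA pair. Over all 40 promoters, searched on both strands, TGACNNNGC was found in 6 (15.0%), against 12.4% of 32817 promoters of the same length. The other 4 were Psmc6, Psmd12, Psmd9 and Psme4. The GAAA pair was found in 5 (12.5%), against 3.43% of all promoters: Psmb3, Psmd4, Psmd9, Psme1 and Psmg4. TGCTGA, the left part of the palindrome bound by MAF proteins, was found in 7 (17.5%) against 19.5%, and TGANTCA, the AP-1 site, in 2 (5.0%) against 7.81%. Both TGANTCA and TGACNNNGC were found in 2 promoters, Psmb5 and Psmd9, where the matches share no letters. The start sites used lie 27, 10, 434 and 371 bases from the outermost annotated starts of Psmb5, Psmb6, Psmb9 and Psme1. For Psmd9 the distance is 58777 bases. In 37 of the 40 windows the last 30 bases lie in a transcript of the gene. A match, or the lack of one, describes letters in that window alone, and no binding was measured.

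In WT libraries proteasome genes of every role were detected. All 40 genes that could be tested had over 3 counts in all 5 WT libraries, and together the family took 1740 ± 134 CPM of all counts there (by library size; SD, n = 5). Levels of different genes are compared per length, as TMM-scaled CPM per kilobase of exon. TMM is a scaling of library sizes that assumes most genes do not change, and exons of all annotated isoforms were merged. On this scale the tested alpha ring genes lay close together, from 6.77 ± 2.43 for Psma3 to 13.1 ± 6.23 for Psma6, and these extremes overlap within their SD, so the order within the ring is not resolved. Psme1, which encodes a chain of the PA28 activator ring, stood highest of all at 50.2 ± 14.4, followed by Psmb2, a structural beta subunit, at 33.3 ± 17.8, and these neighbors overlap within their SD. Psme3 and Psme2, the gamma chain and the partner chain of Psme1, followed at 18 ± 6.93 and 16.2 ± 7.46. Psmc5, the highest ATPase gene, stood at 15.3 ± 5.54, Psmb5 at 14.4 ± 7.49 and Psmd14, the deubiquitinase of the 19S lid, at 12.5 ± 10.2.

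The lowest tested gene per length was Psmb8, at 0.489 ± 0.327. Of its exonic bases 55.5% lie inside an antisense gene, and with the counting settings unknown its level may be too low. Chaperones that assemble the 19S base were also low, Psmd5 at 0.818 ± 0.203 and Psmd9 at 1.23 ± 0.687, as was Psmf1, the proteasome inhibitor PI31, at 2.28 ± 1.4. If the length of the whole gene, introns included, is used in place of exons, Psme1 stays highest. Within the roles the leading gene then becomes Psma7, Psmb4, Psmb6, Psmd8 or Psmd5 in place of Psma6, Psmb2, Psmb5, Psmd14 or Psmd9, and the leaders of the ATPases and activators stay Psmc5 and Psme1. Between WT libraries the coefficient of variation of a tested proteasome gene was 21.2 to 83.6%, with a median of 52.2%, against a median of 55.2% over all tested genes. Psmc6, an ATPase gene, varied least and Psmd7, a scaffold of the 19S lid, most.

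**Figure D1:**
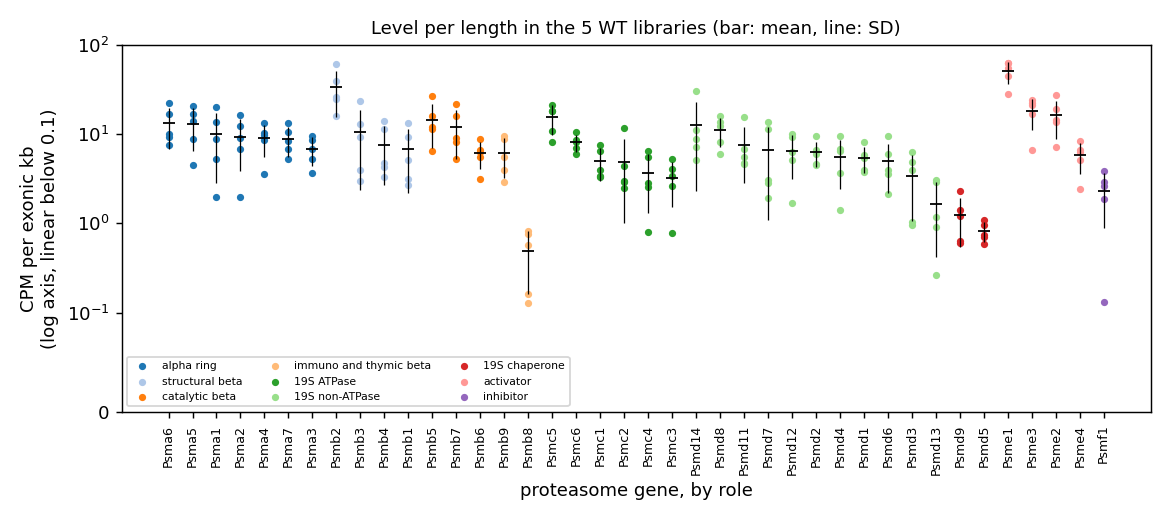
Level of the 40 tested proteasome genes per kilobase of exon (vertical axis, TMM-scaled CPM per kb, log scale that is linear below 0.1) in each of the 5 WT libraries (points), with the mean (bar) and SD (line), grouped by role along the horizontal axis. Psme1 lies highest, at a mean of 50.2, and Psmb8 lowest, at 0.489.

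Several genes of the family share sequence or position with others, which bears on their counts. Psmb10 lies wholly inside the antisense gene Gm16156 (100% of its exonic bases), and Psme2b inside Gm12185. Of these bases, 0% of Psmb10 and 4.9% of Psme2b lie in an exon of another gene. Both are listed at 0, and since the counting settings are not given, whether they are expressed cannot be read here. Psmg3, with 1 count in all, has 83.5% of its exonic bases inside Gm26938 and 9.7% in an exon of it. Psmb8 has 55.5% inside the antisense gene Gm20496, and Psma3, which kept 5281 WT counts, 54.7% inside 3110056K07Rik, with 14.7% and 0% in an exon of those genes. Of 50-base windows in their transcripts, 54.1% of Psmb5, 50% of Psma5, 28.3% of Psme2, 24.9% of Psmd9, 17.8% of Psmb3 and 17.8% of Psmd2 also occur in transcripts of another gene, most of them pseudogenes, and for Psme2 and Psmd9 mainly Psme2b and Gm26745, a lincRNA on the opposite strand that also spans 40.6% of the exonic bases of Psmd9. Counts of these genes are uncertain to that extent in both genotypes.

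In the KO libraries most proteasome genes were missing, as were most of all tested genes. For genes with over 3 KO counts, the top KO library held a median of 95.1% of them among members and 89.5% among all tested genes. Of the 40 tested genes, 14 passed as lower in KO and 0 as higher (edgeR's quasi-likelihood test, Benjamini-Hochberg adjusted p under 0.05 over all 7490 genes). This is 35.0% of the tested members. Over all tested genes 27.1% passed as lower and 1.5% as higher, so the share of lower calls is near the background. Genes counted in WT alone enter the test through WT, so genes at 0 in KO could only be lower. The 14 genes that fell come from 7 of the 9 roles tested, which are the alpha ring, both groups of constitutive beta subunits, the immunoproteasome, the ATPases, the other 19S subunits and the 19S chaperones. Fitted log2 changes had a median of -2.41 over the tested members and -0.47 over all 7490 genes, and both values were the same with genes at 0 in KO set at their bound. For 15 of the 40, every KO library was below every WT library on the TMM scale, against 28.9% of all tested genes. No tested member had every KO library above every WT library, against 0.774%. On the TMM scale the highest KO library was above every WT library for 16 of the 40, against 56.5% of all tested genes. By library size some of these placings do not hold (below).

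Other tools and scalings gave other numbers of lower members. There were 14 of 40 with RLE size factors (24.2% of all genes), 17 of 40 with library size alone (31.1%), 17 of 37 with DESeq2 (23.3%) and 19 of 40 with voom (33.2%). There were 16 of 48 with no filter on low counts (15.9%), 12 of 38 with a minimum count of 50 (19.9%) and 18 of 40 with an exact permutation test run over all genes (32.2%). DESeq2 fitted 48 members but gave an adjusted p to 37. The members without one include Psmb6, Psme1, Psme2 and Psma6, each fitted above 0, and these could not be called. Members called higher were 1 of 37 with DESeq2, which is Psmd4, against 13.5% of all genes. They were 0 with RLE (2.58%), library size alone (0.654%), voom (0.948%), no filter (12.3%), a minimum count of 50 (0.848%) and the permutation test (0.975%).

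**Figure D2:**
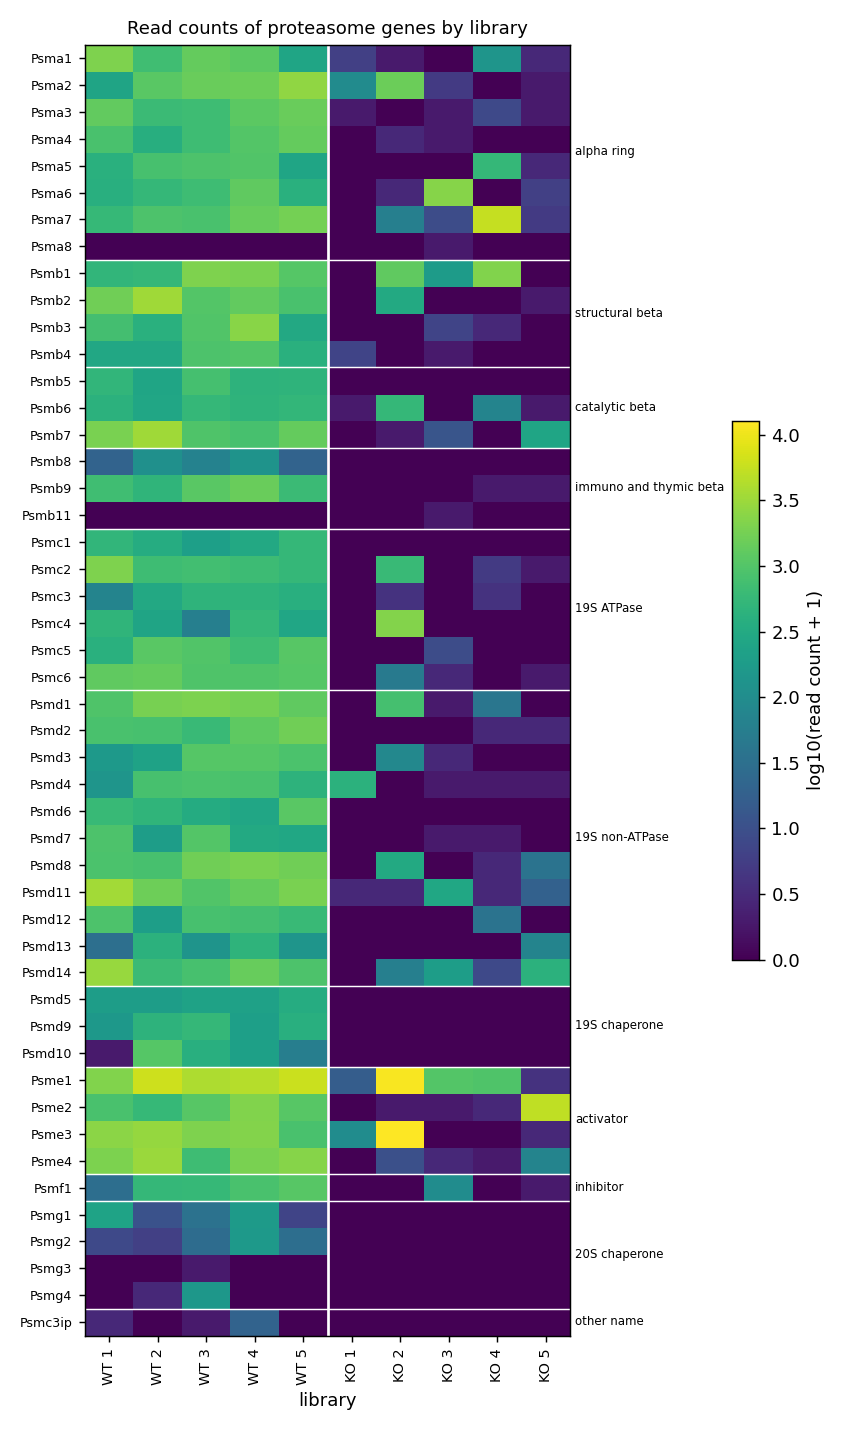
Read counts of the 48 proteasome genes (rows, grouped by role) in the 5 WT and 5 KO libraries (columns), colored by log10(read count + 1). The WT columns are filled for all but the weakest genes, while the KO columns are mostly at 0 with isolated high cells, such as 12815 counts of Psme3 in KO library 2.

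Each KO library retained a different small set of the family. Of the 40 tested genes, 6, 15, 11, 11 and 9 had over 3 counts in KO libraries 1 to 5. This is 10.4 ± 3.29 of 40 (SD, n = 5), against 40 in every WT library, a value that the filter for testing largely fixes. With WT counts scaled down to the smallest KO total, 39 or 40 of the 40 would still exceed 3 counts. This scaling uses totals alone, for genes admitted largely through WT, and the part of depth was not tested. The share of tested members with at most 3 counts was 85.0, 62.5, 72.5, 72.5 and 77.5% in KO libraries 1 to 5, where that of all tested genes was 82.0, 63.6, 54.6, 55.1 and 65.0%. The share of the members was the higher of the pair in KO libraries 1, 3, 4 and 5 and the lower in KO library 2. Their median WT level, 22.0 CPM, was above the 16.2 CPM of all tested genes.

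**Figure D3:**
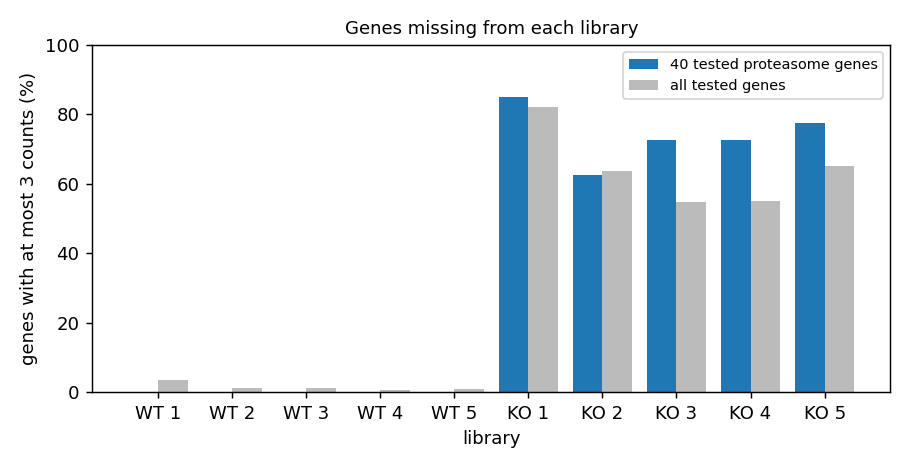
Percent of genes with at most 3 counts in each library (bars from 0 to 100%), for the 40 tested proteasome genes and for all 7490 tested genes. No tested proteasome gene is missing from a WT library, and 62.5 to 85.0% are missing from a KO library. The filter for testing largely fixes the WT value.

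Of the 40 tested genes, 11 had over 3 counts in 0 KO libraries, 14 in 1, 10 in 2, 2 in 3, 3 in 4 and 0 in all 5. Over all tested genes, 22.3, 29.0, 19.7, 11.9, 10.1 and 7.06% had over 3 counts in 0, 1, 2, 3, 4 and 5 KO libraries. The 3 genes seen in 4 KO libraries were Psme1, Psma7 and Psmd14. The summed family share of each library varied far more in KO than in WT: 137, 3550, 478, 961 and 1680 CPM by library size in KO libraries 1 to 5, against 1550 to 1910 CPM in WT. The leading pair of genes took 75.7 to 92.0% of the family's counts in a KO library and 14.8 to 22.9% in a WT library. The leading gene was Psmd4 in KO library 1 (428 of 653 family counts), Psme3 in KO library 2 (12815 of 32224), Psma6 in KO library 3 (2321 of 4133), Psma7 in KO library 4 (5505 of 9487) and Psme2 in KO library 5 (5151 of 6073). No gene led in more than 1 KO library.

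Of the 31 tested members with over 3 KO counts, the KO library with the most held a median of 95.1% of them, against 89.5% over all tested genes. In WT the top library held a median of 32.3% of a member's counts. For 20 of the 31, over 90% of the KO counts came from 1 library, a share that was not computed over all tested genes. Of the 26 genes that did not pass, 16 passed as lower when 1 particular KO library was left out and 0 as higher. Of all 5351 tested genes that did not pass, 40.7% passed as lower and 5.16% as higher in this way. With KO library 1, 2, 3, 4 or 5 left out, 17, 21, 17, 17 or 19 members were lower, beside 33.7, 35.5, 37.9, 37.8 or 36.6% of all genes tested then. None was higher, beside 3.72, 3.56, 3.09, 3.41 or 2.43%. With WT library 1, 2, 3, 4 or 5 left out, 14, 13, 13, 13 or 13 members were lower, beside 28.8, 24.9, 24.5, 23.8 or 24.3%, and none was higher, beside 1.22, 1.15, 1.13, 1.17 or 1.11%. Without KO libraries 1 and 5 together 22 were lower, beside 33.4%, and none was higher, beside 3.53%. Psmd10, not tested with all libraries, was tested and lower in each omission of a KO library. Besides it, leaving out KO library 1 added Psmb4 and Psmd4 to the genes that passed. Leaving out KO library 2 added Psmb2, Psmc2, Psmc4, Psmc6, Psmd1 and Psmd3. KO library 3 decided Psma6 and Psmf1, KO library 4 Psma5 and Psmd12, and KO library 5 Psmb7, Psmd13, Psme2 and Psme4. The 14 genes that passed with all libraries also passed without any single KO library.

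**Figure D4:**
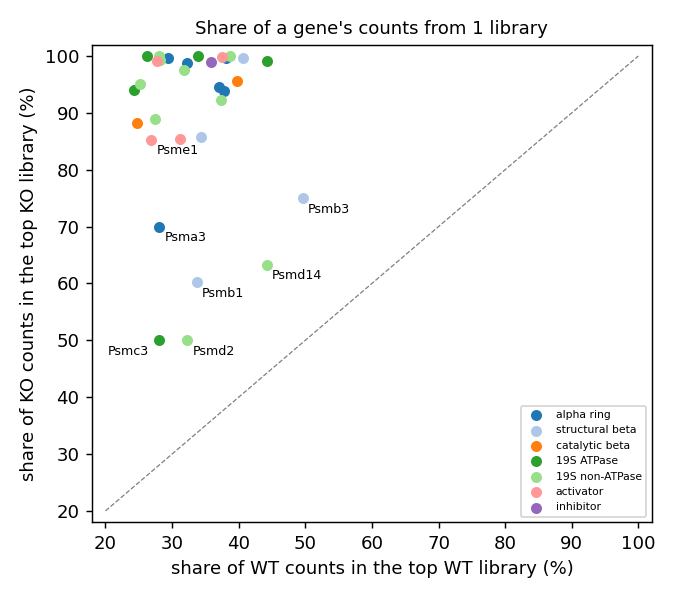
Share of a gene's WT counts that came from its top WT library (horizontal axis, %) against the share of its KO counts from its top KO library (vertical axis, %), for the 31 tested proteasome genes with over 3 KO counts. All points lie above the dashed line of equal shares.

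Among the constitutive catalytic subunits, Psmb5 fell and Psmb6 and Psmb7 did not pass. Psmb5 (ENSMUSG00000022193, GRCm38 chromosome 14, 54614119 to 54618022), which encodes the chymotrypsin-like subunit that bortezomib binds, had 497, 261, 791, 459 and 476 counts in WT libraries 1 to 5 and 0 in every KO library. The level was 13.0 ± 6.73 CPM (TMM-scaled; SD, n = 5) in WT, and the summed WT counts over the summed scaled library sizes were at least 98.8-fold above a floor set at 3 counts in the KO libraries together (edgeR adjusted p = 0.00163). All bounds below are formed in this way, not from mean CPM. Floors and bounds cover counting error only, since no molecular identifiers are named and reads can be copies of one another. With library size alone the same bound was 254-fold, since the TMM factors of WT, 1.462 to 1.908, exceed those of KO, 0.1803 to 0.9276. For the same reason KO libraries stand higher against WT on the TMM-scaled CPM scale used below than by library size. Placings above every WT library that do not hold by library size are Psma2 and Psme3 in KO library 1 and Psmc2 and Psmd1 in KO library 2. The same is true of Psme1 in KO libraries 3 and 4, and of Psmb7 and Psmd14 in KO library 5. Psmb6 (chromosome 11, 70525367 to 70527858), the caspase-like subunit, had 429, 264, 551, 468 and 516 counts in WT and 1, 547, 0, 71 and 1 in KO. On the CPM scale KO library 2, at 82.1, lies above every WT library (5.90 to 16.5), KO library 4 within their range and the other 3 below it. In edgeR its log2 change was 0.73 (SE 1.59; adjusted p by edgeR = 0.79), which turned to -1.83 without KO library 2 and to -0.49 with library size alone. Psmb7 (chromosome 2, 38588036 to 38644087), the trypsin-like subunit, had 1888, 3292, 933, 803 and 1358 counts in WT and 0, 1, 11, 0 and 259 in KO. On the log2 scale edgeR fitted -0.83 (SE 1.87; adjusted p by edgeR = 0.797). KO library 5, at 113 CPM, lies above every WT library (17.8 to 73.6) and the other 4 below. Without it the value was -6.41 and passed (edgeR adjusted p = 0.0137), and with RLE size factors it was 0.16.

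The immunoproteasome genes that could be measured both fell. Psmb9 (ENSMUSG00000096727, chromosome 17, 34181987 to 34187764), which encodes the interferon-induced counterpart of the Psmb6 subunit, had 708, 479, 1155, 1464 and 638 counts in WT and 0, 0, 0, 1 and 1 in KO. The groups do not overlap. The level in WT was 22.5 ± 10.7 CPM, and the ratio of WT to KO, taken here and below between the summed counts of each group over its summed TMM-scaled library sizes and not between means of CPM, was 265 (95% exact counting interval 73.4 to 2190; edgeR adjusted p = 0.00218). Psmb8 (ENSMUSG00000024338, chromosome 17, 34197721 to 34201454), the counterpart of Psmb5, had 19, 114, 65, 126 and 19 counts in WT and 0 in every KO library. That is 1.65 ± 1.11 CPM in WT, at least 13.6-fold above the floor (edgeR adjusted p = 0.00205). The call of Psmb8 was lost with voom (adjusted p = 0.0629), and with any WT library left out Psmb8 had too few counts to be tested. Psmb11, the subunit of thymic epithelium, had 1 count in all 10 libraries.

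Within WT, Psmb8 and Psmb9 together took 20.5, 13.4, 34.9, 47.9 and 21.8% of the counts of the catalytic subunits in WT libraries 1 to 5, a mean of 27.7 ± 13.7% (SD, n = 5), without Psmb10, which gave no counts. Each of these shares rests on 3007 to 4410 counts, and exact 95% intervals, which cover counting error only, were 12.5 to 14.5% in WT library 2 and 46.2 to 49.6% in WT library 4. Per exonic length the mean share was 17.2 ± 8.04%. The overlaps of Psmb8 and Psmb10 and the shared sequence of Psmb5, given above, make these shares uncertain. Of the pair that can replace each other, Psmb9 took 65.1 ± 7.51% of the counts of Psmb9 and Psmb6 in WT, and 49.2 ± 8.37% per exonic length. In KO the share of Psmb8 and Psmb9 was 0 of 548 catalytic counts in library 2 (upper exact 95% limit 0.671%), 1 of 72 in library 4 (1.39%, 0.0352 to 7.5%) and 1 of 261 in library 5 (0.383%, 0.0097 to 2.12%). KO libraries 1 and 3 held 1 and 11 catalytic counts and give no usable share. In each of the 3 libraries, 1 gene held most of those counts, Psmb6 in libraries 2 and 4 and Psmb7 in library 5.

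In the alpha ring, which gates entry to the core, 2 of 7 tested genes fell and 5 did not pass (median log2 change -0.13). Psma4 had 840, 373, 670, 1034 and 1388 counts in WT and 0, 2, 1, 0 and 0 in KO. Its WT level was 21.4 ± 8.44 CPM and the ratio of WT to KO was 171 (95% exact counting interval 58.6 to 831; edgeR adjusted p = 0.00176). Psma3 had 1303, 629, 685, 1182 and 1482 counts in WT and 1, 0, 1, 7 and 1 in KO (fitted log2 change -5.71, SE 1.58; adjusted p by edgeR = 0.00923). Without KO library 4, which held 7 of its KO counts, Psma3 stood at a log2 change of -6.04 (edgeR adjusted p = 0.0117). In neither gene do the groups overlap. Psma6, the leader of the ring per length, had 394, 545, 681, 1250 and 411 counts in WT and 0, 2, 2321, 0 and 5 in KO, where KO library 3 alone held 99.7% of the counts. The fitted log2 change was 1.99 (SE 2.0; adjusted p by edgeR = 0.528), and -4.33 without that library (edgeR adjusted p = 0.0297).

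Psma7 behaved in the same way, chosen here after its values were seen: KO library 4 held 5505 of its 5576 KO counts, against 555 to 1803 in a WT library, and its log2 fold change was 2.56 with that library and -3.07 without it (edgeR adjusted p = 0.377 and 0.0803). Psma2 was high in KO libraries 1 and 2 (95 and 1508 counts; 112 and 226 CPM, above all WT libraries at 7.16 to 60.4) and had 4, 0 and 1 counts in the others. For Psma5, 537 of 539 KO counts lay in library 4, and for Psma1 137 of 145. Without that library Psma5 stood at a log2 change of -6.18 (edgeR adjusted p = 0.0115) and Psma1 at -3.78 (edgeR adjusted p = 0.0951). Psma8, the alpha subunit of the testis, had 1 count in all libraries.

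Of the structural beta subunits, 1 of 4 fell. Psmb3 had 750, 409, 992, 2406 and 297 counts in WT and 0, 0, 6, 2 and 0 in KO, with no overlap (24.1 ± 18.8 and 0.221 ± 0.358 CPM, fitted log2 change -6.48, SE 1.68; adjusted p by edgeR = 0.00596). Psmb2 had 1641, 3309, 1034, 1336 and 838 counts in WT and 0, 310, 0, 0 and 1 in KO. KO library 2 lies within the WT range on the CPM scale, at 46.5 against 19.1 to 74.0, and the other 4 lie below it. In edgeR its log2 change was -2.08 (SE 1.91; adjusted p by edgeR = 0.484), and -8.58 without KO library 2 (edgeR adjusted p = 0.00676). Psmb1 was the most widely retained of these genes, with 1253, 177 and 2166 counts in KO libraries 2, 3 and 4 and 0 in the other two. It had a log2 change of 1.76 with all libraries and 0.76 without KO library 4 (edgeR adjusted p = 0.531 and 0.749). Psmb4 had 6 counts in KO library 1, 1 in KO library 3 and 0 in the rest.

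Of the 19S ATPases, which form the unfolding ring, 3 of 6 fell and 3 did not pass (median log2 change -4.67). Psmc1 had 512, 343, 210, 296 and 549 counts in WT and 0 in every KO library (9.54 ± 3.80 CPM, at least 76.0-fold above the floor, edgeR adjusted p = 0.00163). Psmc3 had 71, 303, 461, 473 and 384 counts in WT and 0, 3, 0, 3 and 0 in KO (fitted log2 change -5.22, SE 1.26; adjusted p by edgeR = 0.00377). Psmc5 had 399, 1123, 986, 673 and 1113 counts in WT and 0, 0, 8, 0 and 0 in KO (fitted log2 change -6.30, SE 1.69; adjusted p by edgeR = 0.00759). In each of the 3 every KO library was below every WT library. Psmc6 was also below in 5 of 5 but missed the threshold (fitted log2 change -4.11, SE 1.65; adjusted p by edgeR = 0.0758), with 47 counts in KO library 2, without which it passed. Psmc4 shows the opposite extreme: all 2248 of its KO counts came from KO library 2, at 337 CPM against 1.74 to 14.0 in WT. On the log2 scale edgeR fitted 3.10 (SE 2.29; adjusted p by edgeR = 0.373), and -10.59 without that library. The genes Psmc4 and Psmc6 were named after their values were seen.

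Of the 11 other subunits of the 19S particle, 3 fell and 8 did not pass (median log2 change -2.25). Psmd6, a lid subunit, had 586, 491, 334, 266 and 1156 counts in WT and 0 in every KO library, at least 113-fold above the floor (14.0 ± 7.90 CPM in WT, edgeR adjusted p = 0.00163). Psmd7, which pairs with the deubiquitinase subunit in the lid, had 906, 194, 1022, 314 and 283 counts in WT and 0, 0, 1, 1 and 0 in KO. The ratio of WT to KO was 162 (95% exact counting interval 44.9 to 1340; edgeR adjusted p = 0.00163). Psmd2, the large scaffold that docks shuttle proteins, had 844, 824, 617, 1208 and 1670 counts in WT and 0, 0, 0, 2 and 2 in KO (fitted log2 change -6.79, SE 1.72; adjusted p by edgeR = 0.00512). In all 3 the groups do not overlap.

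Psmd14, the deubiquitinase that removes the ubiquitin chain before entry, was the 1 tested 19S gene with over 3 counts in 4 KO libraries. It had 2991, 639, 822, 1415 and 896 counts in WT and 0, 59, 189, 7 and 439 in KO. On the CPM scale KO library 3 lies inside the WT range (25.9 against 14.3 to 85.7), KO library 5 above it at 192, and the other 3 below. The fitted log2 change was 0.37 (SE 1.65; adjusted p by edgeR = 0.902). It was -1.96 without KO library 5 and -0.80 with library size alone. Psmd1, the scaffold partner of Psmd2, had 791 and 40 counts in KO libraries 2 and 4, at most 1 in the others, and 948 to 1973 in WT. On the CPM scale KO library 2, at 119, was above every WT library (27.2 to 59.3) and the other 4 KO libraries below. Psmd4, an intrinsic ubiquitin receptor, drew 428 of 431 KO counts from library 1, the library with the highest erythroid marker level, whose part in this was not tested. Its log2 fold change of 2.70 (edgeR adjusted p = 0.415) turned to -6.52 without that library (edgeR adjusted p = 0.00754), and Psmd4 was the single member that DESeq2 called higher in KO with all libraries. By edgeR 0 members with a value above 0 reached an unadjusted p under 0.05, and the lowest was that of Psme2 (unadjusted p = 0.0987). The remaining Psmd3, Psmd8, Psmd11, Psmd12 and Psmd13 had 36 to 345 KO counts, and 89.0 to 100% of those of each gene were in 1 library. For Psmd12 this was KO library 4, without which its log2 change was -11.69 (edgeR adjusted p = 0.00525).

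The assembly chaperones with Psm names were at 0 counts in every KO library. Pomp, a maturation factor of the core outside the name pattern, was not, with 342 KO counts. The share at 0 among other genes as low in WT was not computed. Of the 19S base chaperones, Psmd5 had 189, 192, 232, 227 and 346 counts in WT and 0 in every KO library (5.91 ± 1.47 CPM, at least 47.2-fold above the floor, edgeR adjusted p = 0.00163). Psmd9 had 152, 455, 551, 208 and 389 counts in WT and 0 in every KO library (8.91 ± 4.98 CPM, at least 69.8-fold, edgeR adjusted p = 0.00163). Psmd10, which encodes gankyrin, had 1, 1071, 383, 214 and 57 counts in WT and 0 in KO, and with its low WT library 1 it was not among the genes tested. Its counts correspond to at least 68.7-fold above the floor. The 20S chaperones were weak in WT and at 0 in all KO libraries: Psmg1 had 237, 10, 35, 173 and 6 WT counts, Psmg2 had 7, 5, 27, 162 and 29, Psmg4 had 147 in WT library 3 and 2 elsewhere, and Psmg3 had 1. None of the 4 was tested. Psmc3ip, which matches the name pattern but encodes a cofactor of meiotic recombination and not a proteasome subunit, had 22 WT counts and 0 in KO. Of the 40 tested members 6 were at 0 in every KO library, which are Psmb5, Psmb8, Psmc1, Psmd5, Psmd6 and Psmd9, a share to set beside 9.05% of all tested genes.

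Among activators and the inhibitor, 0 of 5 passed with edgeR, and the largest KO counts of the family lie here. Psme1 (ENSMUSG00000022216, chromosome 14, 55578123 to 55581529) had 2144, 6122, 4033, 4450 and 5997 counts in WT and 15, 11575, 1013, 960 and 3 in KO. On the CPM scale KO libraries 2, 3 and 4 (1740, 139 and 137) lie above every WT library, the last of them level to 3 digits with the highest at 137, and KO libraries 1 and 5 (17.6 and 1.31) lie below the lowest at 61.4. In edgeR its log2 change was 1.87 (SE 1.5; adjusted p by edgeR = 0.412), and -0.57 without KO library 2. Psme2, which forms the PA28 ring with Psme1, had 845, 558, 1109, 2174 and 1106 counts in WT and 0, 1, 1, 2 and 5151 in KO. A single library, KO 5, was far above WT and 4 were near 0. On the log2 scale edgeR fitted 3.98 (SE 2.28; adjusted p by edgeR = 0.235), and -7.31 without KO library 5 (edgeR adjusted p = 0.00441). The 2 chains of this ring were thus high in different KO libraries: Psme1 in library 2, where Psme2 had 1 count, and Psme2 in library 5, where Psme1 had 3.

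Psme3, the nuclear activator that degrades some proteins without ubiquitin, had 2453, 2916, 2063, 2230 and 851 counts in WT and 100, 12815, 0, 0 and 2 in KO. KO libraries 1 and 2 lie above every WT library on the CPM scale (118 and 1920 against 19.4 to 70.3) and the other 3 below. By library size KO library 1 does not lie above WT. The fitted log2 change was 2.94 (SE 2.08; adjusted p by edgeR = 0.349), and -0.32 without KO library 2. Psme4, the activator PA200, had 681 to 3128 counts in WT and 0, 9, 2, 1 and 70 in KO (fitted log2 change -2.90, SE 1.75; adjusted p by edgeR = 0.263). It passed without KO library 5, at -6.58 (edgeR adjusted p = 0.00858). Psmf1, the inhibitor, had 30, 539, 562, 842 and 1099 counts in WT and 0, 0, 98, 0 and 1 in KO (fitted log2 change -2.35, SE 1.63; adjusted p by edgeR = 0.335). Without KO library 3 it was -7.18 and passed (edgeR adjusted p = 0.00788).

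**Figure D5:**
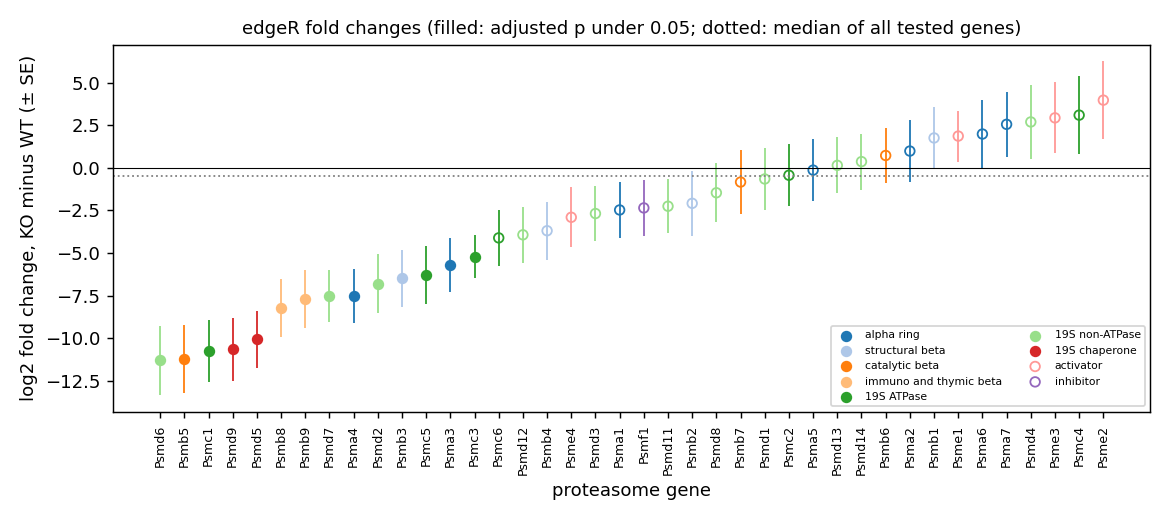
edgeR log2 fold change (KO minus WT) with its SE for the 40 tested proteasome genes, ordered by value and colored by role; filled points passed an adjusted p of 0.05, and the dotted line marks the median over all 7490 genes (-0.47). The 14 filled points lie at -5.22 or below, and the 12 points above 0 are open.

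Genes of the same pathway outside the name pattern were taken from a list of 38: proteasome partners, factors that control proteasome genes, ubiquitin shuttles and ubiquitin itself, and neighbors in antigen processing. Of these 36 were found in the table by symbol and 34 were tested; 6 passed as lower, 0 as higher and 28 did not pass (median log2 change -1.34; 27.1% of all tested genes were lower). Among those that passed were the shuttle genes Ubqln2 (5637 WT and 1 KO counts) and Ubqln4 (3719 and 2), the arsenite-induced Zfand2a (2589 and 1) and the proteasome-bound ligase gene Ube3c (5182 and 7). Their edgeR adjusted p-values were 0.00219, 0.00163, 0.00163 and 0.00913. Pomp, the maturation factor of the core, had 8393 WT counts and 342 KO counts (40.9 ± 13.1 and 10.1 ± 15.0 CPM, fitted log2 change -2.0, SE 1.72; adjusted p by edgeR = 0.453). Nfe2l1, which encodes the factor NRF1 that drives proteasome genes when proteasomes are short, had 6870 and 77 counts, seen above 3 counts in 1 KO library (log2 fold change -3.72, edgeR adjusted p = 0.16). Sem1, a small lid subunit, had 4144 and 260 counts, also in 1 KO library (log2 fold change -1.51, edgeR adjusted p = 0.602). Adrm1, a ubiquitin receptor of the 19S particle, had 1071 WT counts and 5105 KO counts, again above 3 counts in 1 KO library (log2 fold change 4.63, edgeR adjusted p = 0.205). For Adrm1, Sem1 and Nfe2l1, as for most tested Psm genes with over 3 KO counts, 1 KO library held nearly all KO counts.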

How the data were processed

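RNA of 5 WT and 5 KO libraries was measured by total RNA-seq. The authors deposited raw read counts per gene. Per the submitters' processing notes, tools included HTSeq 0.9.1, STAR 2.6.0c and SAMtools 1.8. No source used here gives the annotation release or strand setting. Of 54838 gene rows, 54809 matched GENCODE vM21 by identifier, which gave lengths and overlaps. edgeR 4.0.16 in R 4.3.3 was run on all libraries (filterByExpr, minimum count 10; TMM; quasi-likelihood F-test; Benjamini-Hochberg over 7490 genes, threshold 0.05), and checked on simulated data. The simulated counts had the same spread setting for every gene and did not copy the missing genes of the KO libraries. They therefore give no error rate for such libraries. The SE is the log2 fold change over the square root of F. CPM were scaled by TMM unless library size is named. Totals were 3620002 to 24489987 counts, and libraries of a group differed by far more than sampling noise (chi-square per degree of freedom at least 162).

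The members and lists were chosen with earlier results of these data known. Values in every library were given for Psmb5 to Psmb10 and Psme1 to Psme3, the 12 genes with the smallest p among those that passed, and the highest WT gene per length of each role. Alternatives were DESeq2 1.42.0, voom (limma 3.58.1), scaling by RLE or by library size, other count filters and each library left out. An exact permutation test over all genes, leaving out KO libraries 1 and 5 together, scaling of WT depth and gene span as length were added after seeing the data. Some genes of the pathway list are not reported here.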

Additional observations from a re-analysis of the deposited data

Results flagged for a closer look

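Dixon's test at the 95% level was run on TMM-scaled CPM within each group. For 10 of the named genes it set 1 library apart from the other 4 of its group. It flags about 1 in 20 groups by chance only where values are normally distributed. KO values were mostly low with isolated high ones, so that rate cannot be used for them. Over all tested genes with over 3 KO counts, the top KO library held a median of 89.5% of them. A gene held mainly by 1 KO library is thus readily flagged, and the share flagged over all tested genes was not computed. In KO library 2 the flagged genes were Psmb6 at 82.1, Psme1 at 1740, Psme3 at 1920 and Psmb2 at 46.5 CPM. KO library 3 stood apart for Psma6 at 318, Psmf1 at 13.4 and Psmc5 at 1.1 CPM, the last resting on 8 counts. KO library 5 stood apart for Psmb7 at 113, Psme2 at 2260 and Psmd14 at 192 CPM. In WT, Psmd14 in WT library 1 stood apart at 85.7 CPM.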

How the results depend on the processing

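No paired analysis was possible because the replicate numbers are the order of deposit and pair no libraries. Members called lower were 14, and 13 to 21 with 1 library left out or 22 without KO libraries 1 and 5. Members called higher were 0, and 1 of the 37 to which DESeq2 gave an adjusted p. All 14 calls were kept except that of Psmb8 with voom, those of Psmb8 and Psmc3 with a minimum count of 50, and that of Psmb8, then not tested, with each WT library left out. Over all genes, lower calls were 1173 with a minimum count of 50, 3291 without KO libraries 1 and 5 and 1734 to 3350 with 1 library left out. Higher calls, 112 with TMM, were 193 with RLE, 49 with library size alone, 1512 with DESeq2, 71 with voom, 2345 with no filter, 50 with a minimum count of 50, 73 with the permutation test (smallest p 0.00794), 348 without KO libraries 1 and 5, and 82 to 333 with 1 library left out. The members' median was -1.62 with RLE, -3.63 with library size alone, -1.68 with DESeq2, -4.60 with voom, -2.90 with no filter, -3.04 with the permutation test, -5.89 without KO libraries 1 and 5, and -4.63 to -2.32 with 1 library left out. The medians of all tested genes under the first 7 were 0.09, -1.77, 1.24, -3.58, -0.91, -2.05 and -2.52. A mean of 20.8 members had 0 counts in a KO library, against 29.6 with at most 3 (28.5 to 30.8 with 1 library left out). The WT immunoproteasome share was 22.6 to 31.3% with 1 library left out.

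Among the 22 named genes, directions turned for 7. Psmb6 was -0.49 with library size alone, -2.32 with voom, -1.27 on the permutation test's scale, and -1.83 to 1.05 with 1 library left out. Psmb7 was 0.16 with RLE and 0.05 with DESeq2. Psme1 was -0.66 with voom and -0.66 on the permutation scale (-0.57 to 2.19 with 1 left out). Psme2 was -3.33, -2.39 and, without KO libraries 1 and 5, -7.24 (-7.31 to 4.76). Psme3 was -2.84 and -1.89 (-0.32 to 3.28). Psma6 was -3.25 and -1.92 (-4.33 to 2.29). Psmd14 was -0.80 with library size alone, -2.14, -1.57 and, without KO libraries 1 and 5, -1.62 (-1.96 to 1.04). The cause was not tested. Over 22 named genes, 359 comparisons kept direction with no change of call and 24 turned. A further 5 kept direction and gained the call, and 1 kept direction and lost it. The 359 include Psmb6, Psme1, Psme2 and Psma6 with DESeq2, which gave them no adjusted p. Some that turned also passed as lower. These were Psme2 without KO library 5 or without KO libraries 1 and 5 (edgeR adjusted p = 0.00441 and 0.00851) and Psma6 without KO library 3 (edgeR adjusted p = 0.0297). The floor of 3 counts over the KO group corresponds to 0.124 CPM, and the part of depth in the missing genes was not tested.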
